A study of Mus musculus with 28 samples.

Results

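Mouse embryonic stem cells were compared between the naive culture condition 2iL and 48 h after its withdrawal, a time labelled here by the formative markers Pou3f1 and Dnmt3a and the naive marker Klf4. The members are the 4 libraries labelled 48 h and the 4 labelled 2iL, chosen by their titles, which makes 8 of the 28 libraries of the series. The line is E14, an established male mouse embryonic stem cell line derived from a blastocyst, and it is the only line used, so the values describe this line. In the 2iL group the cells grew on gelatin in serum-free N2B27 medium with 3 µM CHIR99021 (a GSK3 inhibitor that turns on WNT signalling), 1 µM PD0325901 (a MEK inhibitor that blocks ERK signalling) and the cytokine LIF. In the 48 h group the cells had been plated in the same medium and then held for 48 h in N2B27 without those 3 components. The groups 24 h and 96 h, used below as neighbours in time, differ from it in the hours without 2iL, and the labels name no gene edit or transgene in any group. The 3 components were taken away together, so their separate parts cannot be told apart, and neither can the withdrawal and the added time in culture. The titles number the experiments 1 to 4, with 1 library of each group in each. Values listed for 4 libraries below are always in the order of experiments 1, 2, 3 and 4. Nothing in the labels says whether the experiments were separate cultures, so p-values measure the spread between these libraries, which may be technical.

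Mouse embryonic stem cells held in 2iL resemble the epiblast of the blastocyst before implantation, and they run a network of transcription factors that includes Nanog, Esrrb, Tfcp2l1 and Klf4. When the inhibitors and LIF are removed, this network is dismantled and the cells pass through a formative state, like the epiblast just after implantation, in which they become competent to enter the germ layers and the germ line. Pou3f1 and Otx2 are transcription factors of that state, and the de novo DNA methyltransferases, which put methyl groups on unmethylated DNA, are known to be switched on with it.

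The libraries were 3′ digital gene expression RNA sequencing, in which reads come from the ends of polyadenylated transcripts. The counts are therefore not divided by transcript length. No comparison of levels between genes is made here. Levels are in CPM, the usual unit for counts scaled to a common library size, after scaling by the trimmed mean of M values (TMM). Differences are given as log2 fold changes with ± 1 approximate standard error (4 libraries a group). This error is the size of the change over the square root of the test's F value. It rests on a spread estimated over all 28 libraries and is only a rough guide for genes with few counts. Besides 2iL and 48 h, these libraries are of 24 h, 96 h and 120 h of withdrawal and of cells returned to 2iL after 48 h or 96 h. Counts assigned to genes came to 1748315 to 2828694 per library in 2iL and to 1671969 to 2161363 at 48 h, and 13453 to 14029 genes had a count. The files leave out alignments with several possible places, which were 54.7% to 57.0% in 2iL and 57.8% to 60.1% at 48 h. A gene with near copies elsewhere, such as Pou5f1, is therefore undercounted by an unknown amount. Counts that come from bulk RNA do not tell fewer cells of a kind apart from less RNA per cell. A gene is said to have risen or fallen where the Benjamini-Hochberg adjusted p of edgeR's quasi-likelihood test was under 0.05 over the 11080 genes tested.

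Of these 11080 genes 3390 changed at 48 h, or 30.6%. In 1803 genes (16.3%) the level rose and in 1587 (14.3%) it fell, which is the background for every count of list members below. Rises of at least 2-fold were called in 885 genes (7.99%) and falls of that size in 896 (8.09%), and 407 and 331 genes passed 4-fold. The direction was the same in 4 of 4 experiments for 1678 of the 1803 genes that rose and for 1485 of the 1587 that fell. The calls were made on these same libraries, so this agreement follows in large part from them and is not replication. Its share over all tested genes was not taken. The levels of the 2 groups did not overlap in 3096 of all tested genes (27.9%). The median change over all tested genes was 0.03.

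The 3 markers of the state were read first, as a check of the labels. Pou3f1 (chromosome 4, 124656807 to 124660655; all positions are on GRCm38), a POU-domain transcription factor of the early post-implantation epiblast, stood at 3.85, 4.70, 6.73 and 7.91 CPM in 2iL and at 399, 381, 535 and 417 CPM at 48 h (log2 fold change 6.22 ± 0.50, adjusted p = 8.6e-12). Dnmt3a (chromosome 12, 3806007 to 3914443), a de novo DNA methyltransferase, stood at 30.8, 27.4, 32.9 and 31.7 CPM in 2iL and at 405, 383, 551 and 490.2 CPM at 48 h (3.89 ± 0.22, adjusted p = 4.21e-15). Klf4 (chromosome 4, 55527143 to 55532466), a naive factor induced by LIF, went the other way, from 316, 411, 383 and 402 CPM to 42.8, 32.4, 26.7 and 68.98 CPM (-3.17 ± 0.24, adjusted p = 2.37e-12). For each of the 3 genes, every 48 h library lay on the far side of every 2iL library, with a wide gap, so the 8 libraries match their labels in these markers. The markers were chosen with earlier results of these data known, so this match is no independent support for the state.

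Most listed formative and primed epiblast genes rose. Of the 23 that were tested 19 rose, 1 fell and 3 were not called, with a median change of 2.51 against 0.03 over all genes. This list holds the markers Pou3f1 and Dnmt3a. Like the lists below, it was chosen with earlier results of these data known, so the counts are description only. Otx2 (chromosome 14, 48657677 to 48673819), the homeobox factor that works with Pou5f1 at formative enhancers, had 14.4, 20.9, 9.73 and 8.48 CPM in 2iL and 342, 292, 407 and 332 CPM at 48 h (4.68 ± 0.39). Its lowest 48 h library was well above its highest 2iL library. Fgf5 (chromosome 5, 98254184 to 98277030), a growth factor used as a marker of the egg-cylinder epiblast, was close to nothing in 2iL, at 0, 0.855, 0.374 and 0.565 CPM, and had 26.8, 10.8, 42.5 and 17.7 CPM at 48 h (5.64 ± 0.78). Here the 48 h libraries were spread widely, with experiment 3 high and experiment 2 low, but none came near the 2iL levels. The SOX factor gene Sox3 rose from 2.26 ± 1.78 to 48.1 ± 10.96 CPM (mean ± SD, n = 4), the zinc finger factor gene Sall2 from 2.72 ± 1.44 to 56.9 ± 14.4 CPM, and the kinase gene Pim2 from 6.71 ± 3.24 to 172 ± 23.3 CPM. The epithelial pioneer factor Grhl2 was at 3.41 ± 0.43, Sox4 at 2.93 ± 0.17, Lin28b at 2.51 ± 0.30, Zic5 at 2.44 ± 0.32, Foxd3 at 2.05 ± 0.46 and Tcf15 at 2.00 ± 0.30. The members not called were Etv4 (0.61 ± 0.28), Cdh2 (0.62 ± 0.39) and Fgf8, which had under 1 CPM in both groups. Nodal, the growth factor of the post-implantation epiblast, was the member that fell (-1.10 ± 0.40, adjusted p = 0.0333), and its call was lost when any 1 of 5 libraries was left out (2iL of experiment 3 or 4 or 48 h of experiment 1, 2 or 3), with adjusted p up to 0.124.

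Most listed naive genes fell. Of 18 tested, the marker Klf4 among them, 15 fell and 0 rose, with a median change of -1.98. Tfcp2l1 (chromosome 1, 118627945 to 118685168), a factor at the core of the naive network, went from 482, 508, 564 and 636 CPM to 18.1, 20.6, 10.9 and 23.2 CPM (-4.93 ± 0.30, adjusted p = 9.22e-15). Nanog (chromosome 6, 122707489 to 122714633), the homeobox factor of naive cells, went from 155, 139.8, 120.1 and 174 CPM to 8.78, 12.3, 9.12 and 21.98 CPM (-3.54 ± 0.33, adjusted p = 1.66e-10). Neither gene showed any overlap between the groups, and experiment 4 had the highest 48 h level of both. The T-box factor gene Tbx3 fell from 161 ± 25.3 to 9.29 ± 2.85 CPM, the AKT coactivator gene Tcl1 from 175 ± 6.84 to 23.4 ± 4.34 CPM and the nuclear receptor gene Esrrb from 194 ± 27.9 to 30.3 ± 4.10 CPM. Prdm14 (chromosome 1, 13113457 to 13127163), which keeps the de novo methyltransferases low in naive cells, had 76 counts in the 4 libraries of 2iL and 1 at 48 h. The fall was smaller for Zfp42 (-1.22 ± 0.27), Klf5 (-1.44 ± 0.25), Gbx2 (-1.45 ± 0.40) and Klf2 (-1.63 ± 0.28), so the members left the naive level to different degrees. Zfp42 still had 75.97 to 123 CPM at 48 h, below its range of 211 to 286 CPM in 2iL.

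The members that were not called were Nr0b1, Fbxo15 and Mybl1. Nr0b1 (chromosome X, 86191764 to 86195947), an orphan nuclear receptor of the naive network, had 19.7, 10.7, 18.3 and 26.004 CPM in 2iL and 18.1, 4.92, 15.2 and 39.1 CPM at 48 h (-0.02 ± 0.35, adjusted p = 0.971). The 2 groups overlapped over most of their range. Fbxo15 was at -0.45 ± 0.32 (adjusted p = 0.304) and Mybl1 at -0.26 ± 0.27 (adjusted p = 0.513).

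**Figure D1:**
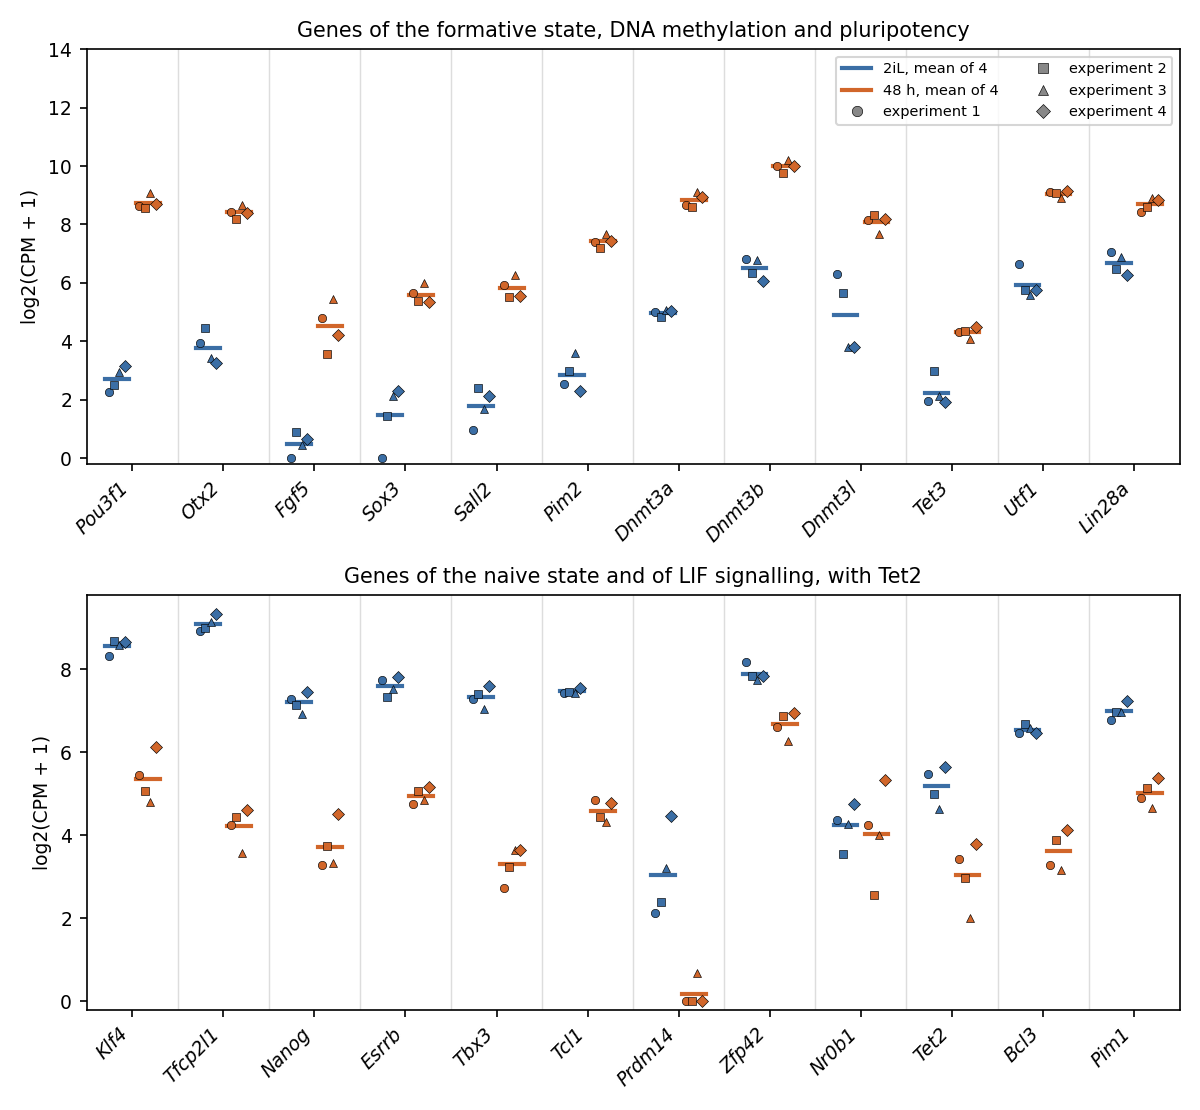
Level of 12 formative, DNA methylation or general pluripotency genes (top) and 12 naive or LIF-responsive genes with Tet2 among them (bottom) in each of the 8 libraries, as log2(CPM + 1), with the 2iL libraries in blue, the 48 h libraries in orange, a marker shape for each experiment and a bar at the mean of 4. Pou3f1 spans 3.85 to 7.91 CPM in 2iL and 381 to 535 CPM at 48 h, Klf4 spans 316 to 411 CPM and 26.7 to 68.98 CPM, while the groups overlap for Nr0b1.

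Genes of pluripotency in general were not lost. Of 12 tested 9 rose and 2 fell, with a median change of 1.02. Utf1 (chromosome 7, 139943789 to 139945112), a chromatin-associated factor of pluripotent cells, went from 99.6, 53.4, 46.8 and 52.6 CPM to 554, 538, 475 and 561 CPM (3.17 ± 0.32), with no overlap. The RNA-binding protein gene Lin28a (chromosome 4, 134003330 to 134018841), whose product blocks let-7 processing, went from 132, 87.6, 118 and 76.3 CPM to 347, 386, 484 and 455 CPM (2.00 ± 0.16), again with no overlap. Dppa4 rose by 1.90 ± 0.29, Zfp281 by 0.98 ± 0.20, Sall4 by 0.44 ± 0.13 and Trim28 by 0.33 ± 0.09. Sox2, a core factor that is kept in both states, fell by 1.44-fold (-0.53 ± 0.11, adjusted p = 0.000328), from 445, 483, 649 and 716 CPM to 368, 417, 379 and 404 CPM. The highest 48 h library of Sox2 stood just under the lowest 2iL library. Pou5f1 was at -0.14 ± 0.29 (adjusted p = 0.758) on counts that are known to be incomplete. The calls of Tdgf1, which fell (-1.09 ± 0.31), and of Dppa2 and L1td1, which rose (1.05 ± 0.29 and 1.19 ± 0.33), were each lost without 1 library of 48 h (experiment 2 for Tdgf1, experiment 3 for the others), with adjusted p of 0.05003, 0.0535 and 0.0505.

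Around LIN28 the partners did not move as 1 block. Lin28a and its paralogue Lin28b rose, as did the chromatin protein gene Hmga1 (1.20 ± 0.35), while Hmga2, a let-7 target, fell from 146, 100.4, 136 and 100.1 CPM to 34.1, 42.3, 31.6 and 35.4 CPM (-1.73 ± 0.28, adjusted p = 1.24e-05). The groups were separate for Hmga2. Hmga1 stood at only 7.33 to 15.2 CPM at 48 h, on counts that leave out reads with more than 1 place. The mRNA-binding proteins Igf2bp1 (0.09 ± 0.08), Igf2bp2 (0.23 ± 0.14) and Igf2bp3 (-0.20 ± 0.12) were not called.

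The DNA methylation machinery changed in composition. Of 13 members tested 5 rose and 2 fell, with a median of -0.0036. Next to Dnmt3a, the second de novo enzyme gene Dnmt3b (chromosome 2, 153649450 to 153687730) went from 111, 79.5, 110.0 and 66.7 CPM to 1032, 862, 1175 and 1021 CPM (3.48 ± 0.31, adjusted p = 1.05e-10). Dnmt3l (chromosome 10, 78041947 to 78063622), their cofactor without enzyme activity, went from 77.9, 49.2, 13.1 and 13.002 CPM to 287, 321, 201 and 293 CPM (3.02 ± 0.25). Both groups were apart for both genes, and in 2iL the Dnmt3l level was higher in experiments 1 and 2 than in 3 and 4. The maintenance enzyme gene Dnmt1 had 195 to 297 CPM in 2iL and 233 to 278 CPM at 48 h (-0.0036 ± 0.10, adjusted p = 0.982), and its partner Uhrf1 was at -0.32 ± 0.15 (adjusted p = 0.105).

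Among the TET enzymes, which oxidise methylated cytosine, the paralogues parted. Tet2 (chromosome 3, 133463679 to 133545139) fell from 43.3, 30.8, 23.9 and 48.6 CPM to 9.81, 6.88, 3.04 and 12.8 CPM (-2.18 ± 0.35, adjusted p = 1.07e-05). Tet3 (chromosome 6, 83362373 to 83459084) rose from 2.89, 6.84, 3.37 and 2.83 CPM to 19.1, 19.7, 15.8 and 21.4 CPM (2.25 ± 0.36, adjusted p = 8.93e-06). Neither gene had overlapping groups. Tet1 was at 0.20 ± 0.21 (adjusted p = 0.517). Mbd3, a subunit gene of the NuRD complex, rose (0.53 ± 0.12).

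LIF acts through the receptor pair encoded by Lifr and Il6st, the kinase JAK1 and the factor STAT3. Of 14 members of this pathway and its targets 11 fell and 0 rose, with a median of -1.32. At the receptor, Il6st fell from 48.6, 32.1, 66.96 and 54.3 CPM to 11.9, 9.83, 32.2 and 23.8 CPM (-1.42 ± 0.25), with experiment 3 highest in both groups and, at 48 h, just above the lowest 2iL library. Lifr itself was at -0.44 ± 0.21 (adjusted p = 0.107). Stat3 fell by 1.90-fold (-0.92 ± 0.18). The targets fell further, with Bcl3 (chromosome 7, 19808462 to 19822770), an IκB-family coregulator, going from 86.6, 101, 95.02 and 87.1 CPM to 8.78, 13.8, 7.90 and 16.5 CPM (-3.02 ± 0.28, adjusted p = 2.1e-10) and the kinase gene Pim1 from 109, 124, 124 and 148 CPM to 28.9, 33.9, 24.3 and 40.9 CPM (-1.98 ± 0.22, adjusted p = 7.82e-09). The groups were separate for both. The feedback inhibitor gene Socs3 was at -1.22 ± 0.31 and the AP-1 factor gene Junb at -1.69 ± 0.39, whereas Socs2 (0.31 ± 0.18) and the phosphatase gene Ptpn11 (0.10 ± 0.17) were not called. The call of Jak1 (-0.50 ± 0.17) was lost without the 2iL library of experiment 2 or 4 or the 48 h library of experiment 3, with adjusted p up to 0.103.

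The GSK3 inhibitor stabilises β-catenin and so turns on the targets of WNT signalling. In this list 8 of 16 members fell and 2 rose, with a median of -0.53. Sp5 (chromosome 2, 70474923 to 70477729), a direct target, went from 99.1, 107, 140.3 and 107 CPM to 1.55, 0.983, 3.04 and 1.83 CPM (-5.93 ± 0.59, adjusted p = 7.37e-10). Axin2 (chromosome 11, 108920349 to 108950783), the feedback scaffold gene used as a reporter of the pathway, went from 42.3, 46.6, 70.3 and 38.4 CPM to 5.68, 4.42, 3.04 and 3.66 CPM (-3.48 ± 0.35, adjusted p = 8.26e-10). For both genes every 48 h library was at a small share of the 2iL level. The caudal factor genes Cdx1 (-4.71 ± 0.70) and Cdx2 and the mesoderm factor gene T (-4.70 ± 1.00) fell as well, with 173 counts of T in 2iL and 5 at 48 h. Lef1, a DNA-binding partner of β-catenin that is also a formative gene, rose from 36.1, 37.6, 81.2 and 71.2 CPM to 148, 134, 155 and 157 CPM (1.44 ± 0.19, adjusted p = 2.74e-07). So within 1 pathway the effector Lef1 was above and its feedback targets were below their 2iL ranges. Ctnnb1 (0.02 ± 0.10), Tcf7l1 (0.44 ± 0.20, adjusted p = 0.0852) and Ccnd1 (-0.16 ± 0.13) were not called. The falls of Tcf7l2 (-0.59 ± 0.22) and Notum (-1.42 ± 0.55) were lost when 1 library was left out, with adjusted p up to 0.198 for Tcf7l2 (2iL of experiment 1 or 2 or 48 h of experiment 1, 2 or 3) and up to 0.203 for Notum (2iL of experiment 2, 3 or 4 or 48 h of experiment 1, 2 or 3).

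The MEK inhibitor silences ERK, which induces phosphatases and inhibitors against itself. Of 15 members of this list 4 rose and 2 fell, with a median of 0.43. Dusp4 (chromosome 8, 34807297 to 34819894), an ERK phosphatase, went from 0.962, 1.71, 1.12 and 0.565 CPM to 103, 128, 72.9 and 46.4 CPM (6.19 ± 0.44, adjusted p = 5.78e-13). Dusp6 (chromosome 10, 99263231 to 99267489), the cytoplasmic ERK phosphatase, went from 7.21, 8.98, 13.1 and 10.7 CPM to 36.1, 33.9, 46.8 and 47.6 CPM (2.04 ± 0.27, adjusted p = 3e-07). Neither gene had overlapping groups, and Dusp4 varied more between 48 h libraries, from high in experiment 2 to low in experiment 4. Dusp5 (2.47 ± 0.43) and Spry4 (2.91 ± 0.54) also rose. Spry2 (0.06 ± 0.18), Etv4 and Etv5 (0.53 ± 0.25, adjusted p = 0.109) were not called.

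The members that fell were the immediate early genes Egr1 and Fos, which ERK switches on within minutes. Egr1 (chromosome 18, 34859823 to 34864984) had 1.44, 185, 38.5 and 30.5 CPM in 2iL and 3.61, 5.90, 1.22 and 4.88 CPM at 48 h (-3.71 ± 0.63, adjusted p = 1.98e-05), and Fos had 1.44, 27.8, 10.8 and 2.83 CPM in 2iL and 0, 0.983, 0.608 and 1.22 CPM at 48 h (-3.67 ± 0.83). The 2iL libraries differed widely, and the one of experiment 1 was within the 48 h range for Egr1. So these 2 genes moved the other way from Dusp4, Dusp5, Dusp6 and Spry4, on levels that 2iL libraries did not share.

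FGF ligands and receptors are the usual source of that ERK signal in these cells. Fgf4, the main ligand of naive cells, fell from 128, 116, 116 and 111 CPM to 66.6, 63.4, 54.1 and 65.9 CPM (-0.93 ± 0.25) while Fgf5 rose. The receptor gene Fgfr2 rose from 0.964 ± 0.727 to 7.20 ± 0.718 CPM (2.91 ± 0.52) and Fgfr1 was at 0.02 ± 0.19 (adjusted p = 0.942). Fgf10 fell (-3.50 ± 0.69). Of the 11 members tested 3 rose and 2 fell, and the rise of the binding protein gene Fgfbp3 (2.76 ± 0.89), at under 2 CPM, was lost without 1 library (2iL of experiment 3 or 4 or 48 h of experiment 1), with adjusted p up to 0.113.

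NODAL, a TGFβ-family ligand, signals through SMAD2 and SMAD3 and induces its own antagonists. Of 13 members tested 9 fell and 1 rose, with a median of -1.09. The antagonist gene Lefty2 (chromosome 1, 180893108 to 180899103) had 39.9, 219.7, 51.996 and 269 CPM in 2iL and 8.26, 5.90, 4.25 and 10.4 CPM at 48 h (-4.27 ± 0.54, adjusted p = 1.36e-07), and its neighbour Lefty1 had 5.77, 32.9, 13.5 and 39.01 CPM in 2iL and 2.58, 1.47, 1.22 and 3.66 CPM at 48 h (-3.36 ± 0.67). Both were highest in 2iL in experiments 2 and 4, and the groups were apart in spite of that spread. The inhibitory SMAD gene Smad7 (chromosome 18, 75367529 to 75395935) went from 27.9, 47.9, 29.9 and 71.2 CPM to 5.16, 2.95, 2.43 and 0.610 CPM (-3.91 ± 0.47, adjusted p = 4.68e-08). The proprotein convertase genes Pcsk6 (-2.49 ± 0.29) and Furin (-0.93 ± 0.22), whose products cleave the NODAL precursor, fell too. Acvr2b, a type II receptor gene, rose (0.65 ± 0.18), and Gdf3 (-0.03 ± 0.26) and Smad2 (0.28 ± 0.21) were not called. The falls of the receptor gene Acvr1b (-1.62 ± 0.54) and of Smad3 (-0.79 ± 0.27), like those of Nodal and Tdgf1, were lost when 1 library was left out, with adjusted p up to 0.0688 for Acvr1b (2iL of experiment 3 or 48 h of experiment 3 or 4) and up to 0.146 for Smad3 (2iL of experiment 1 or 48 h of experiment 1 or 3). With experiments 1 and 2 alone, and with 3 and 4 alone, 5 members fell.

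In the BMP list 2 of 10 members fell and 0 rose, beside 14.3% and 16.3% of all tested genes. The ligand gene Bmp4 went from 39.9, 28.6, 45.3 and 20.4 CPM to 9.29, 7.37, 13.98 and 14.7 CPM (-1.61 ± 0.29, adjusted p = 4.2e-05) and the target gene Id4 from 21.6 ± 9.55 to 2.82 ± 1.32 CPM (-2.81 ± 0.46). The targets Id1 (-0.48 ± 0.38), Id2 (0.38 ± 0.33) and Id3 (0.30 ± 0.35) were not called.

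In the Notch pathway ligands and responders moved in both directions. The ligand genes Dll1, with 3 counts in 2iL and 76 at 48 h (ratio 30.9, 95% interval 10.2 to 153), and Dll3 (2.46 ± 0.49) rose, and the ligand gene Jag1 fell from 25.5, 26.1, 51.996 and 30.5 CPM to 13.4, 10.8, 10.9 and 11.6 CPM (-1.44 ± 0.30). Hes6 (chromosome 1, 91411483 to 91414038), a HES-family protein that opposes HES1, rose from 17.8, 22.7, 22.4 and 20.4 CPM to 199.8, 232, 231 and 188 CPM (3.34 ± 0.22, adjusted p = 5.3e-14). Hes1 (chromosome 16, 30064384 to 30067796), the repressor that Notch induces, fell from 38.5, 38.9, 38.5 and 43.5 CPM to 9.81, 5.90, 4.25 and 10.99 CPM (-2.35 ± 0.31, adjusted p = 3.5e-07). The groups were far apart for both genes. Of 13 members 5 rose and 2 fell, and the count of 5 was 3 without the 2iL or the 48 h library of experiment 4, since the calls of Notch2 (1.15 ± 0.39) and Hes3 (3.54 ± 1.21) were then lost, with adjusted p of 0.0578 to 0.0698. Leaving out the library of experiment 1 in either group ended the call of Notch2, and of experiment 3 that of Hes3.

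**Figure D2:**
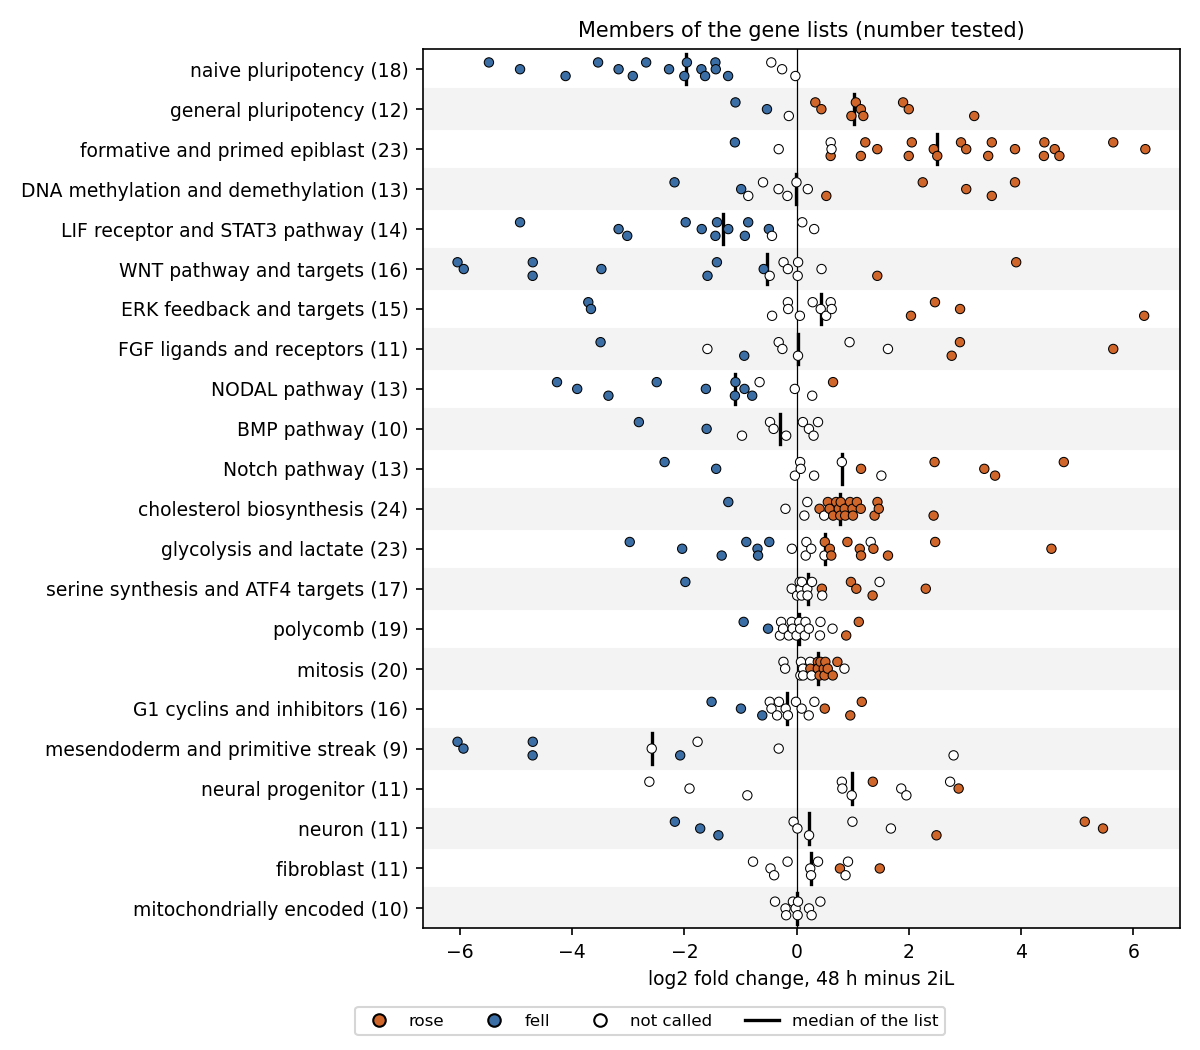
Log2 fold change of every tested member of 22 gene lists, 48 h minus 2iL, with members that rose in orange, members that fell in blue, members not called in white and the median of each list as a bar. Naive genes lie at or below 0 with a median of -1.98, formative genes mostly above 0 with a median of 2.51, and the mitochondrially encoded genes hold 0 calls of 10.

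Outside the lists, the largest changes were picked by a rule on fold, level and separation of the groups. Among the 12 largest rises, Myrf, a membrane-bound transcription factor, had 1 count in 2iL and 183 at 48 h (ratio 224, 95% interval 39.6 to 8875). Btbd17 had 2 counts and 284 (ratio 173, 95% interval 47.6 to 1439), and the synaptic active-zone protein gene Rims4 had 1 and 136 (ratio 166, 95% interval 29.3 to 6608). These 3 genes were almost silent in 2iL in all 4 libraries and at 16.7 to 35.1, 24.1 to 62.6 and 14.7 to 23.7 CPM at 48 h. The T-box factor gene Tbx4 (ratio 136, 95% interval 23.8 to 5402), the calmodulin-like gene Calml4 (ratio 101, 95% interval 27.5 to 839), the guanine nucleotide exchange factor gene Arhgef28 (ratio 75.7, 95% interval 20.5 to 632), the carbonic anhydrase gene Car14 (ratio 61.1, 95% interval 20.5 to 299) and the serine protease gene Prss50 (ratio 62.3, 95% interval 16.8 to 521) had 1 to 3 counts in 2iL. The calcium release channel gene Ryr3 rose from 0.481, 0, 0.748 and 0.565 CPM to 38.7, 31.5, 32.8 and 40.3 CPM (6.14 ± 0.69, adjusted p = 1.23e-08). Pou3f1, Dusp4 and Fgf5 completed the 12. These intervals cover counting error only.

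Among the 12 largest falls, 5 genes had no count at all at 48 h. Against a floor of 3 counts over the 4 libraries, Mal, a proteolipid of membrane rafts, was at least 72.9-fold lower, the water and glycerol channel gene Aqp3 at least 39.3-fold, Pramel6, of a family repressed on exit from the naive state, at least 27.3-fold, AA986860 at least 27.3-fold and the monocarboxylate transporter gene Slc16a9 at least 25.4-fold. In 2iL their libraries stood at 25.8 to 37.2, 9.73 to 21.5, 4.11 to 15.8, 4.52 to 19.2 and 5.77 to 13.1 CPM, in that order. The NMDA receptor subunit gene Grin1 had 429 counts in 2iL and 3 at 48 h (ratio 117, 95% interval 39.8 to 570.0), Cdx2 had 118 and 1 (ratio 96.6, 95% interval 17.01 to 3848), Tlx2 had 102 and 1 (ratio 83.5, 95% interval 14.7 to 3331) and the methyltransferase gene Bhmt had 93 and 1 (ratio 76.1, 95% interval 13.3 to 3039.6). The homeobox factor gene Nkx6-2 (chromosome 7, 139579376 to 139582797) went from 109.7, 164, 165 and 129 CPM to 3.10, 3.93, 0 and 3.05 CPM (-5.75 ± 0.40, adjusted p = 2.31e-13). The cation channel gene Trpm1 was at -5.70 ± 0.59, with 20.7, 32.1, 72.6 and 72.9 CPM in 2iL, higher in experiments 3 and 4 than in 1 and 2, and Sp5 was the remaining member.

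By a separate rule, the genes with the largest difference in CPM were taken, which favours genes with many counts, and no order among them is read here. The brain-type creatine kinase gene Ckb (chromosome 12, 111669361 to 111672338) went from 1066, 1337, 1061 and 1158 CPM to 71.7, 86.02, 46.2 and 78.1 CPM (-4.04 ± 0.15, adjusted p = 5.31e-20). Of genes of lysosomal proteins, Npc2, which binds cholesterol, went from 810.0, 1072, 1143 and 1276 CPM to 306, 342, 315 and 278 CPM (-1.78 ± 0.11) and Grn, the progranulin gene, from 480.5, 904, 1029 and 1120.5 CPM to 209.6, 272, 216 and 199.6 CPM (-1.97 ± 0.21). All 4 libraries at 48 h were below all 4 of 2iL for Ckb, Npc2 and Grn, and Grn was low in 2iL in experiment 1. The initiation factor gene Eif2s2 fell by 2.09-fold, from 4116 ± 464 to 1961 ± 68.8 CPM, and the poly(A)-binding protein gene Pabpc1 by 1.36-fold (-0.45 ± 0.08). The genes taken for their gain in CPM changed by little in fold, with β-actin (Actb) at 0.41 ± 0.08, the nucleolar protein genes Ncl at 0.46 ± 0.10 and Npm1 at 0.52 ± 0.10, prothymosin α (Ptma) at 0.59 ± 0.09 and Sub1 at 0.74 ± 0.09. Several of these have processed pseudogenes, Actb, Npm1 and Ptma among them, so their counts leave out reads with more than 1 place.

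**Figure D3:**
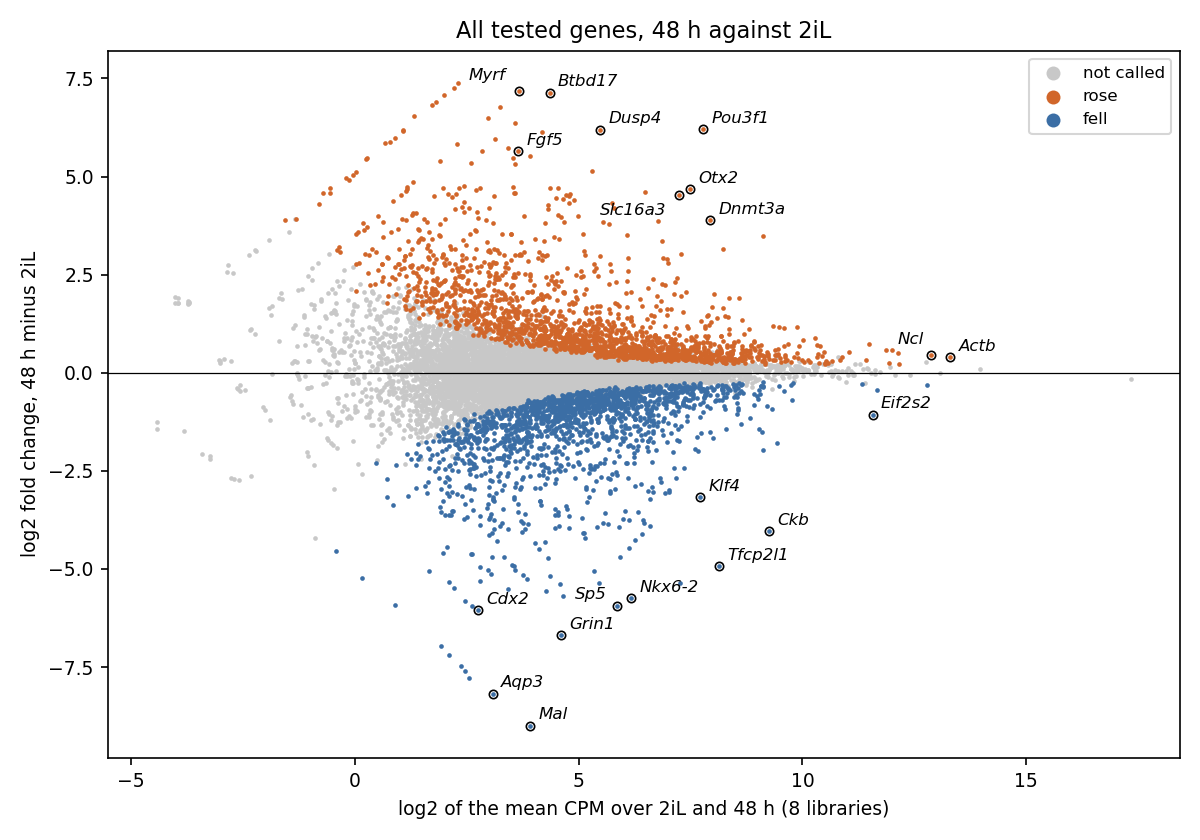
Log2 fold change of each tested gene, 48 h minus 2iL, against the log2 of its mean CPM over the 8 libraries, with genes that rose in orange, genes that fell in blue, genes not called in grey and 20 named genes circled. Genes without a count in these libraries are not drawn. Calls reach 1803 upward and 1587 downward, and Tfcp2l1, Ckb, Pou3f1 and Dnmt3a are among the genes circled.

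Glycolysis genes changed by isoform more than as a pathway. Of 23 tested 10 rose and 7 fell, with a median of 0.50, and the count of 10 was 6 with experiments 3 and 4 alone. At the plasma membrane the glucose transporter gene Slc2a1 (chromosome 4, 119108711 to 119137983) rose from 53.4, 52.6, 71.1 and 85.4 CPM to 193, 164, 234 and 213 CPM (1.63 ± 0.14, adjusted p = 4.79e-11). Its paralogue Slc2a3 (chromosome 6, 122727809 to 122801640), the high-affinity transporter, fell from 168, 236, 236 and 284 CPM to 25.3, 22.6, 31.6 and 38.5 CPM (-2.98 ± 0.26, adjusted p = 4.17e-11). The groups of neither gene overlapped.

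Of the hexokinase genes, Hk1 fell from 136, 127, 123 and 97.8 CPM to 23.7, 18.2, 33.4 and 43.3 CPM (-2.04 ± 0.21, adjusted p = 2.55e-09), with Hk2 also lower (-0.69 ± 0.11). Of the phosphofructokinase genes, the liver type Pfkl rose from 38.5, 50.01, 37.03 and 85.4 CPM to 115, 145, 135 and 128 CPM (1.37 ± 0.18), the muscle type Pfkm rose (0.90 ± 0.26) and the platelet type Pfkp fell from 124, 123, 120.1 and 155 CPM to 68.1, 72.3, 69.3 and 70.2 CPM (-0.90 ± 0.21). In 2iL the Pfkl level of experiment 4 was the highest, still below every 48 h library. Aldoc (-1.34 ± 0.37) and Gpi1 (-0.49 ± 0.10) fell, and Eno3 (2.47 ± 0.43), Eno1 (0.59 ± 0.15), Tpi1 (0.62 ± 0.16) and Pkm (0.50 ± 0.13) rose. Gapdh (0.50 ± 0.23, adjusted p = 0.109) and Pgam1 (0.26 ± 0.20) were not called, on counts that leave out reads with more than 1 place.

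Of the genes that handle pyruvate and lactate, Slc16a3, Ldha and Pdk1 rose, Pdha1 fell and Slc16a1 and Ldhb were not called. Slc16a3 (chromosome 11, 120948480 to 120960868), which exports lactate, went from 8.18, 8.12, 7.86 and 29.4 CPM to 291, 279.7, 304 and 285 CPM (4.54 ± 0.26, adjusted p = 4.21e-15). The 48 h libraries were nearly equal, and in 2iL experiment 4 stood above the other 3. Ldha, which makes lactate, went from 146, 201, 143 and 358 CPM to 426, 430.1, 453 and 452 CPM (1.13 ± 0.14, adjusted p = 1.49e-07), again with experiment 4 highest in 2iL. Pdk1, which inhibits pyruvate dehydrogenase, rose (1.15 ± 0.25) and Pdha1, the catalytic subunit gene of that enzyme, fell (-0.70 ± 0.14). The transporter gene Slc16a1 was at 0.16 ± 0.12 and Ldhb at -0.08 ± 0.20.

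Most listed genes of cholesterol synthesis and uptake rose. Of 24 tested 19 rose and 1 fell, with a median of 0.78, and leaving out 1 library gave 17 to 20 that rose. The pathway begins with HMG-CoA, and Hmgcs1 (chromosome 13, 119690379 to 119708260), its synthase gene, went from 259.7, 203, 207 and 203 CPM to 371, 398, 538 and 452 CPM (1.00 ± 0.12, adjusted p = 5.83e-08). In the mevalonate steps Mvk (0.95 ± 0.17) and Pmvk (1.39 ± 0.21) rose, and Mvd (chromosome 8, 122433601 to 122443422) went from 133, 169, 100.3 and 96.7 CPM to 479.5, 467, 265 and 196 CPM (1.46 ± 0.17, adjusted p = 4.09e-08). Mvd was higher in experiments 1 and 2 than in 3 and 4 in both groups, and higher at 48 h in 4 of 4 experiments. Fdps (1.14 ± 0.15), Sqle (0.86 ± 0.12), Lss (1.44 ± 0.21), Cyp51 (0.78 ± 0.15), Msmo1 (0.86 ± 0.16) and Hsd17b7 (1.07 ± 0.28) rose in the steps through squalene and lanosterol.

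The exception was Ebp (chromosome X, 8185329 to 8193512), the sterol isomerase gene, which fell from 66.9, 103, 82.7 and 92.7 CPM to 40.8, 35.4, 32.8 and 38.5 CPM (-1.22 ± 0.21, adjusted p = 2.25e-05), with no overlap. The regulators Srebf2 (0.19 ± 0.13, adjusted p = 0.301) and Insig1 (0.14 ± 0.22, adjusted p = 0.688), and the enzyme genes Tm7sf2 (-0.20 ± 0.36) and Sc5d (0.49 ± 0.22), were not called. The sterol carrier gene Stard4 rose (1.00 ± 0.16). The rises of Fdft1 (0.59 ± 0.23), Dhcr7 (0.70 ± 0.26) and Nsdhl (0.75 ± 0.22) were lost when 1 library was left out, with adjusted p up to 0.191 for Fdft1 (2iL of experiment 2, 3 or 4 or 48 h of experiment 2 or 3), up to 0.157 for Dhcr7 (2iL of experiment 3 or 4 or 48 h of experiment 1 or 2) and of 0.0778 for Nsdhl (48 h of experiment 1).

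**Figure D4:**
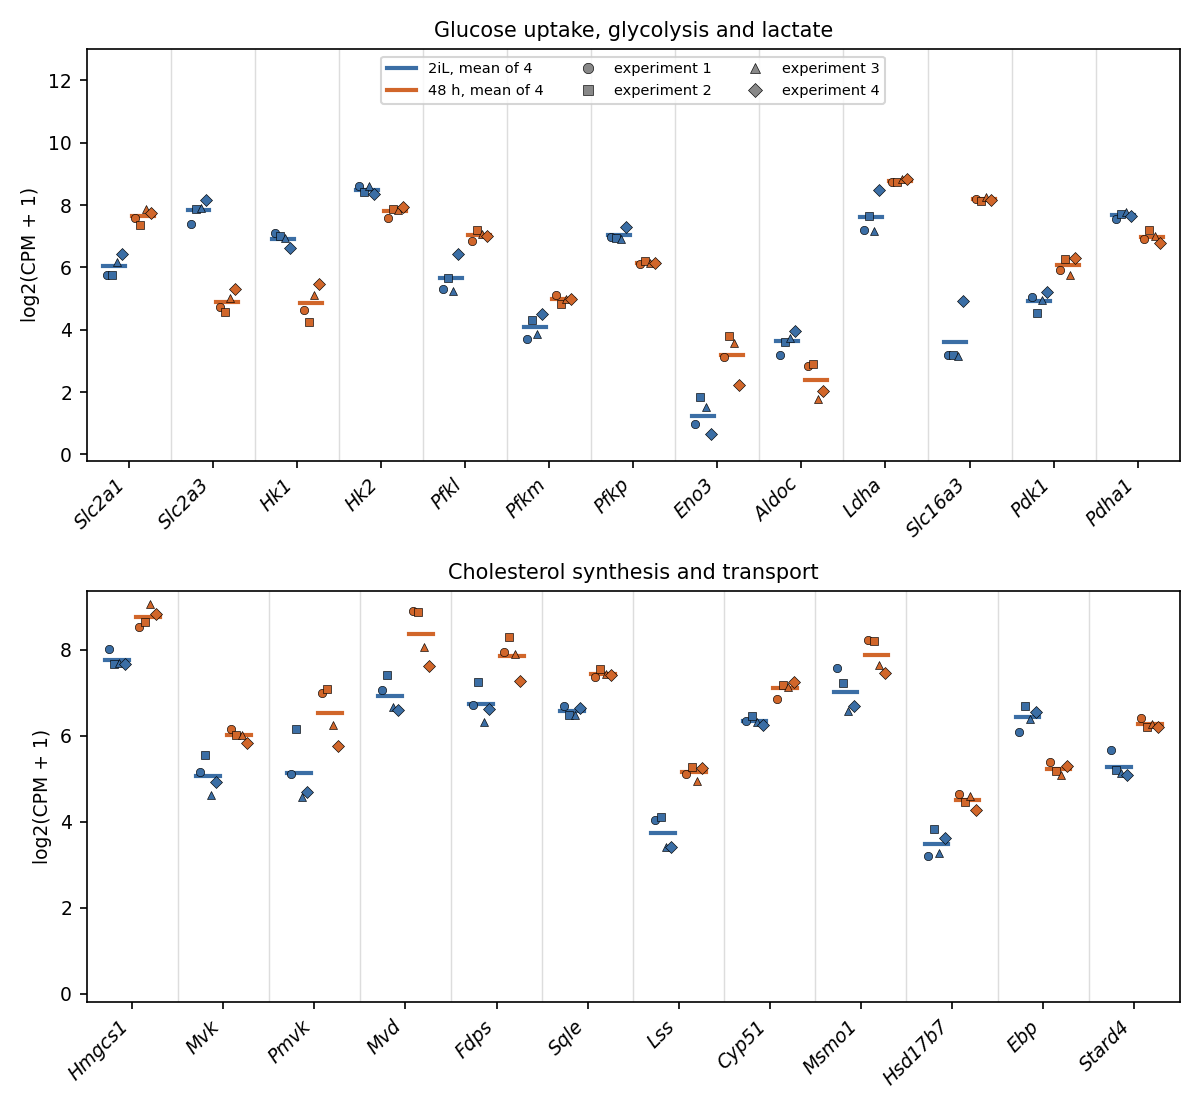
Level of 13 genes of glucose use and 12 genes of cholesterol synthesis or transport in each of the 8 libraries, as log2(CPM + 1), with 2iL in blue, 48 h in orange, a marker shape for each experiment and a bar at the mean of 4. Slc2a1 lies higher and Slc2a3 lower at 48 h. Slc16a3 spans 7.86 to 29.4 CPM in 2iL and 279.7 to 304 CPM at 48 h, and Ebp is the cholesterol gene that lies lower at 48 h.

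Since many members of this list rose, the promoters of its genes were read from RefSeq windows on GRCm38.p6 that run from 250 bases before the start site to 50 after it. Windows on 1 chromosome, that of Egr1 and Smad7, were left out, so genes there count as having no window. Such a window was present for 16 of the 24 genes and for 8660 of the 11080 tested genes, and 9 motifs were searched in it on both strands. The CCAAT box, a binding site of the trimeric factor NF-Y that is known to assist SREBP at sterol genes, was searched as CCAAT, which reads ATTGG on the other strand. It was present in 15 of the 16 genes (93.8%) and in 43.6% of all tested genes with a window. The 15 include Ebp, which fell, and 4 genes that were not called, and the share in the mitosis list was 93.3% (14 of 15), so the box was not limited to genes that rose. The SREBP element, searched as TCACNCCAC, was found in 1 of the 16 (6.25%) and in 1.47% of all genes. The promoters of 4 genes that rose are shown to let the position of the box be seen, each as the 100 bases before the start site, 5′ to 3′ on the strand of the gene, with the CCAAT box of either strand in capitals.
Mvd: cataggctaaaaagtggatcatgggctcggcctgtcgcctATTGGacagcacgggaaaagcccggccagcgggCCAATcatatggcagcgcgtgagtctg
Lss: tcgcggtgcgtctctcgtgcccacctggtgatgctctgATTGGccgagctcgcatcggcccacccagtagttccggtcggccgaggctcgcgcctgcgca
Hsd17b7: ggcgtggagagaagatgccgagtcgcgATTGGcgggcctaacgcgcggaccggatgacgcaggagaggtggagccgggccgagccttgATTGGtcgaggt
Hmgcs1: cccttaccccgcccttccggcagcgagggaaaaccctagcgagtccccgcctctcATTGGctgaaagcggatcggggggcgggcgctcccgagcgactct
Mvd (chr8:122443423-122443522, minus strand) holds 2 boxes, 27 and 60 bases before the start site. Hsd17b7 (chr1:169969206-169969305, minus strand) also holds 2, at 12 and 73 bases. Lss (chr10:76531505-76531604, plus strand) has 1 box at 62 bases and Hmgcs1 (chr13:119690251-119690350, plus strand) 1 at 45 bases. The SREBP element of Hmgcs1 lies 137 bases before the start site, upstream of the stretch shown. A match to these letters is a description of the sequence and not evidence of binding.

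In the list of serine synthesis and ATF4 targets 5 of 17 rose and 1 fell, and the 5 were 2 without the 48 h library of experiment 3 or 4 and 3 without the 2iL library of experiment 3 or 4. Asns (chromosome 6, 7675169 to 7693254), the asparagine synthetase gene, fell from 409, 309, 284 and 288 CPM to 103, 79.1, 55.9 and 88.5 CPM (-1.98 ± 0.17, adjusted p = 3.77e-11), with no overlap. The 5 that rose were Ddit4, an inhibitor gene of mTORC1 (0.97 ± 0.29), Phgdh, of the first step of serine synthesis (1.35 ± 0.48), the amino acid transporter genes Slc7a3 (1.06 ± 0.32) and Slc3a2 (0.45 ± 0.14), and the factor gene Cebpb (2.30 ± 0.69). The calls of 4 of them were lost when 1 library was left out, with adjusted p up to 0.108 for Phgdh (2iL of experiment 3 or 4 or 48 h of experiment 1, 2 or 4), 0.103 for Slc7a3 (2iL of experiment 2 or 48 h of experiment 3 or 4), 0.105 for Slc3a2 (2iL of experiment 3 or 4 or 48 h of experiment 3 or 4) and 0.0535 for Cebpb (48 h of experiment 3). The 11 members not called include Psat1 (0.05 ± 0.14), Trib3 (-0.09 ± 0.29) and Sesn2 (0.09 ± 0.14), and Atf4 itself was at 0.07 ± 0.12 (adjusted p = 0.706).

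Mitosis genes that rose did so by small amounts. Of 20 mitosis genes 11 rose and 0 fell, with a median of 0.38, among them Plk1 (0.73 ± 0.11), Cdc20 (0.64 ± 0.13), Bub1b (0.55 ± 0.14) and Birc5 (0.48 ± 0.11). The count was 8 to 11 with 1 library left out, with calls lost for Ccna2 (2iL of experiment 2, 3 or 4 or 48 h of experiment 1, 3 or 4), Cdk1 (2iL of experiment 2, 3 or 4 or 48 h of experiment 1, 3 or 4), Kif11 (2iL of experiment 2 or 48 h of experiment 2) and Top2a (2iL of experiment 3 or 48 h of experiment 1), and Mki67 was at 0.08 ± 0.12 (adjusted p = 0.688). The list of G1 cyclins and inhibitors had 3 of 16 members that rose, 3 that fell and 10 not called (median -0.18). The inhibitor gene Cdkn1a (chromosome 17, 29090976 to 29100727), which restrains G1 and is a p53 target, fell from 562, 875, 898 and 884 CPM to 289.6, 355, 247 and 246 CPM (-1.52 ± 0.18, adjusted p = 3.84e-08). Its groups were well apart. Cyclin E1 (Ccne1) rose (0.96 ± 0.12), as did the inhibitor gene Cdkn1c (1.16 ± 0.28), and Cdk6 (-0.99 ± 0.20) and E2f1 (-0.61 ± 0.17) fell. The rise of Ccne2 (0.50 ± 0.16) was lost without 1 library (2iL of experiment 1 or 48 h of experiment 1), with adjusted p up to 0.0920, and Ccnd2 (0.32 ± 0.27), Ccnd3 (-0.32 ± 0.14) and Cdkn1b (-0.01 ± 0.20) were not called. Mycn, the MYC-family member of the epiblast, rose from 25.5, 32.5, 26.9 and 27.7 CPM to 84.7, 88.97, 93.6 and 100.1 CPM (1.70 ± 0.21, adjusted p = 5.1e-08), and its dimer partner Max was at -0.14 ± 0.15. Most other p53 targets were not called. Of 16 tested, Pmaip1, which encodes the BH3-only protein NOXA, rose from 2.02 ± 0.845 to 14.97 ± 3.97 CPM (2.82 ± 0.49), Cdkn1a fell, and Mdm2 (0.04 ± 0.16), Bax (-0.03 ± 0.15) and Ccng1 (0.05 ± 0.16) were among the 14 not called.

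Within the polycomb complexes, which place repressive marks on histones, 2 of 19 members rose and 2 fell. Suz12, a core subunit gene of PRC2, went from 429, 504, 519.6 and 525 CPM to 272, 272, 241 and 247 CPM (-0.95 ± 0.12, adjusted p = 1.21e-07). Jarid2, an accessory subunit gene of the same complex, went from 329, 289, 229 and 291 CPM to 576, 540.2, 649.7 and 679 CPM (1.11 ± 0.12, adjusted p = 3e-09). These 2 genes moved in opposite directions with no overlap. The accessory subunit gene Mtf2 fell (-0.51 ± 0.09), the PRC1 reader gene Cbx2 rose (0.88 ± 0.24), and the catalytic subunit gene Ezh2 (0.15 ± 0.12, adjusted p = 0.409) and Eed (-0.28 ± 0.16) were not called.

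TFE3 is a bHLH factor that is known to be kept out of the nucleus by the folliculin complex when naive cells exit. Its gene Tfe3 rose from 86.6, 121, 150.4 and 113 CPM to 186, 182, 218 and 199.6 CPM (0.74 ± 0.18, adjusted p = 0.00135), while its paralogue Mitf (chromosome 6, 97807052 to 98021349) fell from 145, 116, 136 and 82.5 CPM to 6.71, 8.85, 8.51 and 17.7 CPM (-3.51 ± 0.27, adjusted p = 3.78e-12). The groups of both genes were apart. The folliculin partner gene Fnip1 fell (-0.81 ± 0.19), Flcn (-0.46 ± 0.34) and Tfeb (-0.53 ± 0.28) were not called, and the small rise of Rragd (0.47 ± 0.17) was lost without 1 library (2iL of experiment 2, 3 or 4 or 48 h of experiment 1 or 3), with adjusted p up to 0.117.

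Markers of other cell types were read as a check on the make-up of the cultures. Mesendoderm and primitive streak genes summed to 54.8 to 101 CPM in 2iL and 2.44 to 11.4 CPM at 48 h, and 5 of 9 fell. Of the 5, T, Cdx1, Cdx2 and Tlx2 were named above, and the fall of Wnt3 (-2.08 ± 0.76) was lost without 1 library (2iL of experiment 3 or 4 or 48 h of experiment 1, 2, 3 or 4), with adjusted p up to 0.106. Neural progenitor genes were low throughout, at a sum of 19.8 to 26.9 CPM in 2iL and 44.6 to 69.3 CPM at 48 h. Of 11 tested 2 rose, Nes, which encodes an intermediate filament (1.36 ± 0.28), and Irx3 (2.89 ± 0.82, not called without the 48 h library of experiment 2, adjusted p = 0.0567). Sox1 (0.81 ± 0.71, adjusted p = 0.424) and Pax6 (1.96 ± 0.82, adjusted p = 0.0677) were not called, and Olig2 and Neurog2 had no count in either group.

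Genes known from neurons changed singly. Gap43 (chromosome 16, 42248442 to 42340651), a growth cone protein gene, rose from 1.92, 3.85, 0 and 3.39 CPM to 58.8, 73.2, 94.2 and 79.97 CPM (5.14 ± 0.44, adjusted p = 3.48e-11), and Elavl3 rose (2.49 ± 0.52). Nefl, a neurofilament gene, fell from 97.2, 80.4, 71.1 and 61.6 CPM to 23.2, 21.1, 20.1 and 29.3 CPM (-1.72 ± 0.23), as did Mapt (-2.17 ± 0.48) and Stmn3 (-1.40 ± 0.31). The summed level of the list was 377 to 443 CPM in 2iL and 368 to 457 CPM at 48 h, 3 of 11 rose and 3 fell, and the defining marker Dcx had 1 count in each group.

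Fibroblast markers overlapped between the groups, with a sum of 233 to 431 CPM in 2iL and 205 to 464 CPM at 48 h. All 12 listed markers had counts in both groups, among them Col1a2 (-0.47 ± 0.26) and Col1a1 (-0.16 ± 0.20), which were not called. Thy1 rose (1.48 ± 0.39) and the rise of Acta2 (0.77 ± 0.28) was lost without 1 library (2iL of experiment 1, 2 or 3 or 48 h of experiment 2, 3 or 4), with adjusted p up to 0.154. In the trophoblast list, 2 of 7 rose and 4 fell, with 1 rise (Ascl2) not called without the 48 h library of experiment 4 (adjusted p = 0.0665). Tfap2c, a factor of trophoblast that naive stem cells also express, fell from 63.5, 55.1, 117 and 129 CPM to 13.9, 20.6, 16.4 and 25.03 CPM (-2.27 ± 0.42), and the defining markers Elf5 and Hand1 had 0 and 4 counts at 48 h. For primitive endoderm, Gata4 and Gata6 had 1 and 2 counts in each group and Sox17 and Sox7 none, and of 6 tested members 1 rose and 1 fell, with a sum of 629 to 907 CPM in 2iL and 413 to 521 CPM at 48 h. The matrix protein gene Sparc fell (-0.84 ± 0.15), and the rise of the laminin gene Lamb1 (0.83 ± 0.28, adjusted p = 0.0244) was lost without 1 library (2iL of experiment 1 or 2 or 48 h of experiment 1 or 3), with adjusted p up to 0.116. Without the 2iL library of experiment 3 or the 48 h library of experiment 4 the list held 2 rises. Markers of a state like the early cleavage embryo summed to 0.427 to 19.8 CPM in 2iL and 0.492 to 10.4 CPM at 48 h. The part of any such cells in the results above was not tested.

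Germline genes that DNA methylation silences were mostly too low to test, with 6 of 16 tested. Dazl, an RNA-binding protein gene of germ cells, fell from 28.9, 21.8, 53.1 and 59.9 CPM to 3.10, 6.88, 6.69 and 10.99 CPM (-2.51 ± 0.38, adjusted p = 3.09e-06) and Tuba3a fell (-1.08 ± 0.24), while Taf7l rose (2.31 ± 0.54). The calls of Sycp3 (1.67 ± 0.56) and Rhox13 (-1.69 ± 0.56) were lost when 1 library was left out, with adjusted p up to 0.105 for Sycp3 (2iL of experiment 1 or 48 h of experiment 3 or 4) and up to 0.0850 for Rhox13 (2iL of experiment 1 or 48 h of experiment 2 or 4).

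Junction and filament genes exchanged members. The adhesion protein gene Epcam (chromosome 17, 87635979 to 87651129) rose from 28.4, 44.5, 34.04 and 27.7 CPM to 168, 167, 139 and 136 CPM (2.16 ± 0.33, adjusted p = 4.71e-06) and the claudin gene Cldn6 from 4.33, 4.70, 3.37 and 3.96 CPM to 34.1, 34.9, 38.3 and 21.98 CPM (3.01 ± 0.53). Their groups did not overlap. Cldn3 fell (-2.51 ± 0.60), as did the desmosomal protein gene Dsp (-2.65 ± 0.45) and the matrix gene Fn1, from 145, 236, 258 and 261 CPM to 92.9, 73.2, 101 and 81.8 CPM (-1.37 ± 0.18). The keratin partners parted, with Krt8 at -2.29 ± 0.60 and Krt18 at 2.24 ± 0.51, both at low counts and Krt8 with overlapping groups. The cadherin gene Cdh1 was at 0.13 ± 0.36 (adjusted p = 0.824). In all 5 of 20 rose and 5 fell, and the count of rises was 3 without the 2iL library of experiment 3, when Pkp2 (0.68 ± 0.26) and Zeb2 (0.97 ± 0.32) were lost with adjusted p of 0.117 and 0.0749. The call of Pkp2 was also lost without any 1 of the other libraries except the 2iL one of experiment 4.

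The neighbouring time points show which levels were still moving at 48 h. The comparisons of 48 h with 24 h and of 96 h with 48 h share the 48 h libraries with each other and with the comparison above, so their values are given side by side and are not independent. Between 24 h and 48 h 955 of 11080 genes changed (8.62%), 524 higher (4.73%) and 431 lower (3.89%), and without the 48 h library of experiment 3 the totals were 636 and 348 higher. Between 48 h and 96 h 2751 changed (24.8%), 1452 higher (13.1%) and 1299 lower (11.7%).

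Some genes that rose by 48 h, formative genes among them, were highest at 48 h. Dnmt3a averaged 30.7 ± 2.38 CPM in 2iL, 147 ± 27.3 at 24 h, 457 ± 77.7 at 48 h and 202 ± 61.6 at 96 h, and it differed from both neighbours (1.64 ± 0.20 against 24 h, adjusted p = 5.24e-07, and -1.19 ± 0.19 from 48 h to 96 h, adjusted p = 1.58e-05). Hes6 had the same order, with 56.97 ± 8.43 CPM at 24 h, 213 ± 22.2 at 48 h and 115 ± 49.3 at 96 h (1.90 ± 0.20 and -0.91 ± 0.18), and so had Lef1 (1.43 ± 0.19 and -0.61 ± 0.18), whose later fall was lost without the 48 h library of experiment 1 (adjusted p = 0.0519) and without the experiment block (adjusted p = 0.0504). Pou3f1 rose until 48 h (2.45 ± 0.37, adjusted p = 2.23e-05) and averaged 424 ± 121 CPM at 96 h (-0.01 ± 0.34, adjusted p = 0.991). Sox3 rose at both steps (1.73 ± 0.23 and 1.11 ± 0.19).

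Other genes that rose by 48 h, formative genes among them, were not called between 24 h and 48 h and were lower at 96 h. Dnmt3l averaged 400.1 ± 52.1 CPM at 24 h and 276 ± 51.7 at 48 h, not a called difference (-0.55 ± 0.22, adjusted p = 0.12, and 7.998e-05 with these groups fitted alone), and fell to 45.1 ± 24.4 CPM at 96 h (-2.73 ± 0.25, adjusted p = 1.09e-09). Tcf15 was not called against 24 h (-0.35 ± 0.27, adjusted p = 0.504) and fell by 96 h (-2.02 ± 0.30). Utf1 likewise was not called against 24 h (0.44 ± 0.29, adjusted p = 0.406, and 0.00288 with these groups alone) and was lower at 96 h (-1.25 ± 0.29, adjusted p = 0.0017, and 0.0549 without the experiment block).

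Nr0b1, Zfp42 and Bmp4, genes of naive or early cells, were at their highest mean level at 24 h and not in 2iL. Levels at 24 h were not tested against 2iL, so this order rests on the means alone. Nr0b1, which did not differ by call between 2iL and 48 h, averaged 66.4 ± 22.1 CPM at 24 h, against 18.7 ± 6.29 in 2iL and 19.3 ± 14.3 at 48 h, and fell between 24 h and 48 h (-1.87 ± 0.34, adjusted p = 0.000366) and again by 96 h (-2.98 ± 0.47, adjusted p = 1.23e-05). Zfp42 averaged 238 ± 33.2 CPM in 2iL and 279 ± 42.1 at 24 h, and fell after that (-1.46 ± 0.27, then -1.99 ± 0.30). Bmp4 averaged 33.5 ± 11.2 CPM in 2iL, 59.5 ± 12.9 at 24 h and 11.3 ± 3.55 at 48 h (-2.42 ± 0.28 from 24 h to 48 h, adjusted p = 4.73e-07). Tet2 averaged 36.7 ± 11.3 CPM in 2iL and 38.6 ± 9.03 CPM at 24 h, and fell between 24 h and 48 h (-2.27 ± 0.36). Sp5 and Axin2 were already low at 24 h, at 2.38 ± 2.38 and 5.63 ± 1.70 CPM, and were not called between 24 h and 48 h (-0.39 ± 1.10 and -0.33 ± 0.47).

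The glucose transporter genes also differed after 48 h. Slc2a1 went on rising to 353 ± 26.4 CPM at 96 h (0.82 ± 0.13, adjusted p = 1.76e-05). Slc2a3 turned round, from 29.5 ± 7.07 CPM at 48 h to 122 ± 52.7 CPM at 96 h (2.05 ± 0.26, adjusted p = 3.91e-07). Hes1 (1.83 ± 0.32) and Axin2 (1.61 ± 0.39), both low at 48 h, were higher again at 96 h too. Naive genes went further down by 96 h in the case of Tcl1 (-2.23 ± 0.28), Esrrb (-1.74 ± 0.35) and Klf4 (-1.69 ± 0.29), while Nanog (-0.33 ± 0.40) and Tfcp2l1 (-0.52 ± 0.37) were not called after 48 h.

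**Figure D5:**
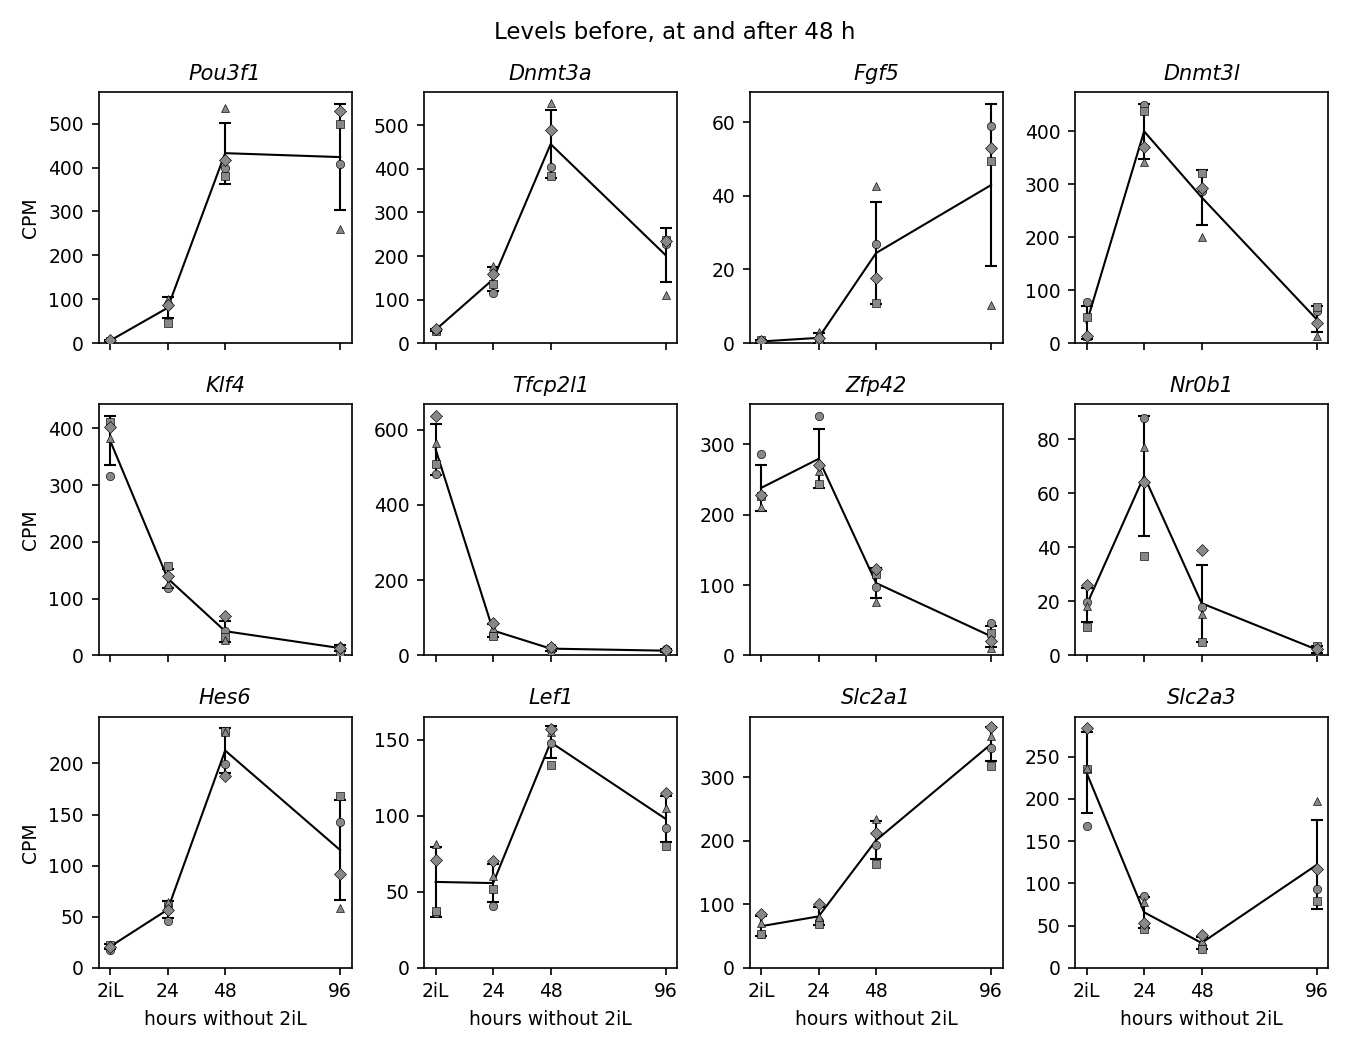
Level in CPM of 12 genes in 2iL and after 24, 48 and 96 h without it, with a line through the means, bars of 1 SD over 4 libraries and a marker shape for each experiment. By their means, Dnmt3a, Hes6 and Lef1 are highest at 48 h, Dnmt3l and Nr0b1 at 24 h, and Slc2a3 is lowest at 48 h with a mean of 29.5 CPM.

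Differences between the experiments were smaller than the difference between the groups. In a principal component analysis of the 8 libraries the first component held 58.2% of the variance and separated 2iL from 48 h, and the second held 10.1% and placed experiments 1 and 2 on one side and 3 and 4 on the other in both groups. Fitted alone, experiments 1 and 2 gave 1232 genes higher and 1056 lower at 48 h, and experiments 3 and 4 gave 1172 and 1191. The mitochondrially encoded share of counts, a measure of RNA quality, was 2.37% ± 0.27 in 2iL and 2.44% ± 0.51 at 48 h (SD, n = 4), a difference of 0.073 percentage points (exact permutation test, two-sided, p = 0.8286). Of the 11 tested genes of the immediate stress response 4 rose and 5 fell, with a median of -0.55. That is a larger share of calls than the 30.6% over all tested genes, and its cause was not tested. The calls of the stress genes Hspb1 and Hspa5 were each lost when any 1 of 5 libraries was left out, with adjusted p up to 0.162 and 0.194.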

How the data were processed

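Gene counts are the deposited files of 8 libraries of the comparison and 20 further libraries, with 31053 genes each. The submitters' processing notes name bcl2fastq, STAR 2.6.0a and HTSeq and the build mm10, whose order and settings are not given in the sources used here. The deposited table of CPM values equals the deposited counts over each library's total, scaled to CPM, in 28 of 28 columns (tolerance 1e-06) and was used only for that check. Counts were fitted with edgeR 4.0.16 (R 4.3.3, limma 3.58.1) by the quasi-likelihood test with TMM scaling, a filter at 10 counts (filterByExpr, total 15), terms for group and experiment, and all 28 libraries, so that all groups share 1 estimate of the spread (18 residual degrees of freedom). Adjusted p-values are Benjamini-Hochberg values over 11080 genes. On data simulated for 48 h against 2iL with 50 genes changed at each size among 11080 genes, the fit called 20%, 68%, 92% and 100% of genes changed 1.5-, 2-, 4- and 8-fold. The changed genes were drawn only from genes above a minimum mean CPM, and no difference between experiments was simulated. In the data far more genes, 3390, were called. These rates therefore do not give the sensitivity of the real comparison or of genes at low level.

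The block is the experiment number in the titles. Deviations from the group means correlated at 0.036, 0.104, 0.082 and 0.018 between same-numbered 2iL and 48 h libraries, against -0.092 to 0.068 for other pairs. The values of experiments 1 and 4 lay below those of some other pairs. Those were 2iL of experiment 2 with 48 h of 1 (0.068) and 2iL of 3 with 48 h of 4 (0.065), among others. The check therefore does not tell pairing by number from a split of experiments 1 and 2 against 3 and 4. No 2 replicates agreed within counting noise, since the chi-square per gene was 2.48 to 9.43 over 12 pairs. The members and gene lists were chosen with earlier results of these data known. Genes outside the lists were named by a rule: the 12 largest rises and 12 largest falls by fold among called genes with separate groups and at least 10 CPM on average in one of them, and the 6 largest rises and 6 largest falls in CPM, with ribosomal protein genes, pseudogenes and provisional gene models passed over. Alternatives were library totals, relative log expression factors, DESeq2 1.42.0, no and stricter filters, no block, the libraries of the 2 groups alone and each library left out, plus, chosen after seeing the data, experiments 1 and 2 or 3 and 4 alone. Promoter windows are from RefSeq. Some list members and named genes are not reported here.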

Additional observations from a re-analysis of the deposited data

Results flagged for a closer look

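Within the 4 libraries of a group, 1 library stood far from the other 3 in 49 of 546 sets of values looked at, where the gap to the nearest library as a share of the whole range passed Dixon's 95% critical value. Chance flags about 1 in 20 such groups and the share here was 8.97%. Several are genes with a count in 1 library and 0 in the other 3, for which the rule is met by construction. With 0 in the other libraries, the lone level in 2iL was 0.962 CPM for Calml4 in experiment 1, 0.427 CPM for Dcx in experiment 2, 0.748 CPM for Fgf8 in experiment 3, 0.565 CPM for Gata4 in experiment 4, 0.374 CPM for Hand1 in experiment 3, 0.374 CPM for Hes3 in experiment 3, 0.374 CPM for Myrf in experiment 3, 0.427 CPM for Rims4 in experiment 2 and 0.427 CPM for Tbx4 in experiment 2. With 0 in the other libraries, the lone level at 48 h was 0.492 CPM for Bhmt in experiment 2, 0.608 CPM for Cdx2 in experiment 3, 0.608 CPM for Dcx in experiment 3, 0.608 CPM for Fgf8 in experiment 3, 0.516 CPM for Gata4 in experiment 1, 2.44 CPM for Hand1 in experiment 4, 0.608 CPM for Prdm14 in experiment 3 and 0.492 CPM for Tlx2 in experiment 2.

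In 2iL the library of experiment 1 was highest for Ccna2 at 74.1 CPM (others 45.8 to 47.02 CPM), Fdft1 at 39.9 CPM (others 17.1 to 19.8 CPM) and Hmgcs1 at 259.7 CPM (others 203 to 207 CPM). The experiment 1 library of 2iL stood high for Krt18 at 3.37 CPM (others 1.12 to 1.28 CPM), Trib3 at 54.8 CPM (others 33.4 to 36.7 CPM) and Utf1 at 99.6 CPM (others 46.8 to 53.4 CPM). In 2iL the library of experiment 1 was lowest for Cdkn1a at 562 CPM (others 875 to 898 CPM) and Mdm2 at 110.1 CPM (others 134 to 139 CPM). The experiment 2 library of 2iL stood high for Ezh2 at 578 CPM (others 414 to 415 CPM), Mbd3 at 129 CPM (others 103 to 107 CPM) and Tet3 at 6.84 CPM (others 2.83 to 3.37 CPM). In 2iL the library of experiment 2 was lowest for Pax6 at 0 CPM (others 0.962 to 1.13 CPM). The experiment 4 library of 2iL stood high for Gapdh at 68.4 CPM (others 51.7 to 53.9 CPM), Hes1 at 43.5 CPM (others 38.5 to 38.9 CPM) and Pfkp at 155 CPM (others 120.1 to 124 CPM). In 2iL the library of experiment 4 was highest for Slc16a3 at 29.4 CPM (others 7.86 to 8.18 CPM) and Tcl1 at 185 CPM (others 171 to 173 CPM). The experiment 1 library of 48 h stood low for Ddit4 at 90.8 CPM (others 118 to 122 CPM). At 48 h the library of experiment 2 was highest for Ezh2 at 617 CPM (others 456 to 474 CPM), Krt8 at 3.93 CPM (others 0.516 to 0.610 CPM) and Pax6 at 4.42 CPM (others 2.06 to 2.44 CPM). The experiment 2 library of 48 h stood high for Ptma at 5490.5 CPM (others 4606 to 4743 CPM). At 48 h the library of experiment 2 was lowest for Cdk1 at 95.9 CPM (others 129 to 135 CPM). The experiment 3 library of 48 h stood high for Cdkn1b at 49.2 CPM (others 39.7 to 40.3 CPM), Dll3 at 23.7 CPM (others 11.8 to 12.2 CPM) and Rragd at 92.4 CPM (others 64.01 to 65.4 CPM). At 48 h the library of experiment 3 was lowest for Eif2s2 at 1858 CPM (others 1985 to 2003 CPM). The experiment 4 library of 48 h stood high for Ccnd3 at 235 CPM (others 153 to 163 CPM), Klf5 at 373 CPM (others 248.6 to 261 CPM) and Lifr at 65.9 CPM (others 46.97 to 49.6 CPM). At 48 h the library of experiment 4 was lowest for Hmga1 at 7.33 CPM (others 14.5 to 15.2 CPM). The mitochondrially encoded share of counts was 2.76% in the 2iL library of experiment 3, against 2.23% to 2.24% in the others. Slc16a3 in 2iL, Hmgcs1 in 2iL, Utf1 in 2iL and Cdkn1a in 2iL are among the genes described above, and in each the 48 h libraries lay beyond the library that stood apart.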

How the results depend on the processing

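Counts of changed genes between 2iL and 48 h stayed within 1.5 times of the main ones under all alternatives except the pairs of experiments, where experiments 3 and 4 alone gave 1172 genes higher and experiments 1 and 2 alone gave 1056 lower. Without the replicate block 1616 genes were higher and 1467 lower, and DESeq2 gave 1788 and 1646. Leaving out 1 library gave 2893 to 3193 changed genes. From 24 h to 48 h leaving out 1 library gave 636 to 849 changed and 348 to 469 higher genes, and the 2 groups alone without the replicate block gave 323 higher. The cause of these shifts was not tested, beyond the fewer libraries in each fit. Of 235 listed or named genes called, 189 to 231 kept their call under alternatives that tested all of them and 0 changed sign. The mitochondrially encoded share, compared within experiments as a replicate block, gave p = 1 (exact sign-flip permutation, 4 pairs, for which the smallest two-sided p is 0.125), and its difference was -0.147 to 0.240 percentage points with 1 library left out. Low genes are limited by depth, since with 1671969 to 2828694 counts a library a gene at 1 CPM rests on a few reads.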
